A study of Mus musculus with 7 samples.

Results

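Immediate early genes are transcribed within minutes of a stimulus, from factors that are already in the cell, and their RNAs are short-lived. In neurons they are switched on by synaptic activity and calcium entry, through CREB, the serum response factor and MEF2, and so are used as marks of recent activity, while in glia and in cells of nerves and vessels many of them follow growth factors, injury and stress hormones. Here 10 such genes were followed in the cervical spinal cord: *Fos*, *Fosb*, *Junb*, *Egr1*, *Egr2*, *Arc*, *Npas4*, *Nr4a1*, *Ier2* and *Dusp1*. They were chosen by name, and all 10 were found by their gene symbols among the 55487 genes of the count table. Each passed the filter on low counts, which kept 18449 genes.

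The libraries came from 4 *Neat1*-KO; hSOD1G93A mice (replicates 1, 2, 3 and 4) and 3 *Neat1*-WT; hSOD1G93A mice (replicates 2, 3 and 4), all 8 weeks old, with 1 library per mouse. *Neat1* encodes a long non-coding RNA that builds nuclear paraspeckles. All 7 mice carried the transgene for mutant human *SOD1* of familial ALS (hSOD1G93A), from a line kept hemizygous by mating to B6 and SJL hybrid females. The methods do not state the background of the 7 mice themselves. Their *Neat1* genotypes came from crosses of heterozygotes. Thus the comparison was between knockout and wild-type *Neat1* within the ALS model. Mice without the transgene were not analysed here, and the labels and methods name no stimulus, so the values are the levels in the cord at the time it was taken. In a bulk sample, fewer cells that express a gene and less RNA per cell cannot be told apart.

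Expression is given as CPM, the count of a gene relative to the total of its library after TMM scaling. Totals ran from 19661878 to 26031517 counts, and any pair of libraries of 1 genotype differed by more than sampling noise, the chi-square per gene being 8.11 to 17.98 in the 9 pairs. *Neat1* lay between 4.04 and 5.52 CPM in *Neat1*-KO and between 80.5 and 118 CPM in *Neat1*-WT libraries, so each library was on the side of its label. Markers of neurons, astrocytes and oligodendrocytes and the *Hox4* to *Hox6* genes of the cervical cord were present in every library. The methods describe sex-balanced groups, but *Xist*, the RNA of the inactive X chromosome of females, had at most 4 counts in any library. By this RNA no library showed the mark of a female, and the labels do not give the sexes of the mice. The summed level of 6 skeletal muscle genes was 16.2 CPM in *Neat1*-WT replicate 4 and at most 2.66 CPM in the other libraries. All 7 genes of the motor neuron list had lower fitted levels in *Neat1*-KO mice, 4 of them at an unadjusted p under 0.05 (edgeR) and none called. Of all genes tested, 48.2% had lower fitted levels and 4.64% an unadjusted p under 0.05 in either direction (edgeR). The summed level of the motor neuron list was 310 to 385 CPM in *Neat1*-KO against 401 to 497 CPM in *Neat1*-WT libraries. The part of these differences in the values given here was not tested.

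The promoters of these genes were searched for the letters of elements through which activity is known to act. RefSeq (GRCm38.p6) gave promoter windows for *Fos*, *Fosb*, *Junb*, *Egr2*, *Npas4*, *Nr4a1* and *Dusp1*, 11 windows in all because *Egr2* had 5 start sites. *Egr1*, *Arc* and *Ier2* had none in that table. Of these 7 genes, 5 are printed below their positions, as the 250 bases before the start in the direction of transcription: the gene most used as an activity mark, the neuron-restricted factor, the nuclear receptor gene that tracked *Egr1*, the gene that varied most between mice, and the only promoter with a full cAMP response element. Capitals mark TGACG, the core of that element which CREB binds, on either strand (it reads CGTCA on the other), and in *Egr2* also the CArG box, which the serum response factor binds. The printed stretches lie at chr12:85473640-85473889 (plus strand) for *Fos*, chr19:4989972-4990221 (minus strand) for *Npas4* and chr15:101266596-101266845 (plus strand) for *Nr4a1*. Those of the other genes lie at chr10:67537619-67537868 (plus strand) for *Egr2* and chr17:26508473-26508722 (minus strand) for *Dusp1*.
Fos: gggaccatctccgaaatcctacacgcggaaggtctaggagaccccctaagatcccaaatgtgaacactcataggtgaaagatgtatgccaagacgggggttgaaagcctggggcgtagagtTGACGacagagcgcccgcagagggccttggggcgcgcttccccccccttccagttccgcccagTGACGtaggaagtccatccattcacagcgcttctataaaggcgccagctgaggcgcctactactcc
Npas4: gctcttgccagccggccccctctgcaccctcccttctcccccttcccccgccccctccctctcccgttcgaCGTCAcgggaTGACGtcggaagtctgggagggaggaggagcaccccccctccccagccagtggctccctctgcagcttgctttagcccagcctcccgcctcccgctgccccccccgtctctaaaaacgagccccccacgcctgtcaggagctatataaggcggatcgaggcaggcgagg
Nr4a1: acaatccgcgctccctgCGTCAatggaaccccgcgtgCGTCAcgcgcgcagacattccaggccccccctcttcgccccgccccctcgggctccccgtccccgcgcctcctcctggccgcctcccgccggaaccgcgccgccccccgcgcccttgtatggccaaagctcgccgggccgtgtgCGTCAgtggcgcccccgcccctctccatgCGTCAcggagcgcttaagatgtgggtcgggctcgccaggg
Egr2: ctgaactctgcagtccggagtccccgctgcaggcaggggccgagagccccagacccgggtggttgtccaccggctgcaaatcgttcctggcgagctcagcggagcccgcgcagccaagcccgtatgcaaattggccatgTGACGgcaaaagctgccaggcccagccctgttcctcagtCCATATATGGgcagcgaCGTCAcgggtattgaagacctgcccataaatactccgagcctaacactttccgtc
Dusp1: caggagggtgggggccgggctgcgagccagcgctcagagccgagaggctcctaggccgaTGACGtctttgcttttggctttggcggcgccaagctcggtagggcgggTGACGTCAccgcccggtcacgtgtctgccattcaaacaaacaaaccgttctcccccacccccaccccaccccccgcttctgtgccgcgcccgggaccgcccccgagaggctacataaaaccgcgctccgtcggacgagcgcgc

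The letters TGACG were in the promoters of 7 of 7 genes, while 23.05% of all 27025 genes with a window held them. They were in 9 of the 11 windows of the 7 genes, and in 20.81% of all 32851 promoter windows. The windows searched also ran past the start, so they were longer than the stretches printed above. The whole palindrome TGACGTCA, which contains TGACG on both strands, was in *Dusp1* alone of the 7, starting 143 bases before the start, and in 1.79% of all windows. In *Npas4* a CGTCA and a TGACG lay 179 and 169 bases before the start. *Nr4a1* held the most, with 4 copies that all read CGTCA. Within the windows searched, a CArG box was found in *Egr2* alone, in 4 of its windows, and in 1.629% of all windows. The *Egr2* windows that begin at 67537619, 67537620 and 67537680 overlap, so the same CArG box (CCATATATGG) and the same TGACG letters were counted repeatedly. The window that begins at 67537316 held a different CArG box, CCTTTTTTGG. The binding site of the EGR factors, GCGGGGGCG, was in *Fosb* and *Nr4a1*, and in 2.907% of all windows. These matches describe the letters in the windows and carry no test.

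Per length of exon, so that genes can be set side by side, the 10 genes fell into 3 ranges of level. *Arc* was the highest in every library, with 11.7 to 14.3 CPM per kilobase. Next came *Fos* (mean of 7.52 CPM per kilobase over the 7 libraries), *Egr1* (6.84), *Junb* (6.75), *Dusp1* (5.38), *Ier2* (4.04) and *Nr4a1* (2.85). Each neighbour in this order overlapped the next in its range over libraries, so that *Fos*, at 5.60 to 9.57, and *Egr1*, at 4.93 to 10.6 CPM per kilobase, did not part. *Npas4* (0.372 to 0.636 CPM per kilobase), *Fosb* (0.222 to 0.598) and *Egr2* (0.0454 to 0.439) were low in every mouse and overlapped each other, and none of their libraries reached the lowest value of *Nr4a1*, 2.20 CPM per kilobase.

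None of the 10 genes was called between the genotypes. To be called, a gene needed a Benjamini-Hochberg adjusted p under 0.1 over all genes tested in the quasi-likelihood test of edgeR, together with a log2 fold change beyond 0.58 in either direction. In the whole comparison 6 genes were called, 0.0325% of those tested. At an unadjusted p under 0.05 there were 0 of the 10 genes, where 4.64% of all genes tested passed, and DESeq2 and limma-voom also gave 0. For the adjusted threshold limma-voom gave 0 of 10, and DESeq2 0 of the 7 genes for which it gave an adjusted p, since it gave none for *Fosb*, *Egr2* and *Npas4*. In 0 of the 10 genes were the libraries of the genotypes free of overlap, against 5.47% of all genes tested. The fitted level was higher in *Neat1*-KO mice for 8 genes and lower for 2, while 48.2% of all genes tested were lower. The median log2 fold change was 0.06, beside 0.01 over all genes tested. That lean did not hold throughout: 6 of the 10 were lower without *Neat1*-KO replicate 4, with a median of -0.10, and 5 were lower without *Neat1*-WT replicate 2, without *Neat1*-WT replicate 4 or with limma-voom. Over all alternatives the median ran from -0.10 to 0.20, the latter with *Xist* as a covariate.

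**Figure D1:**
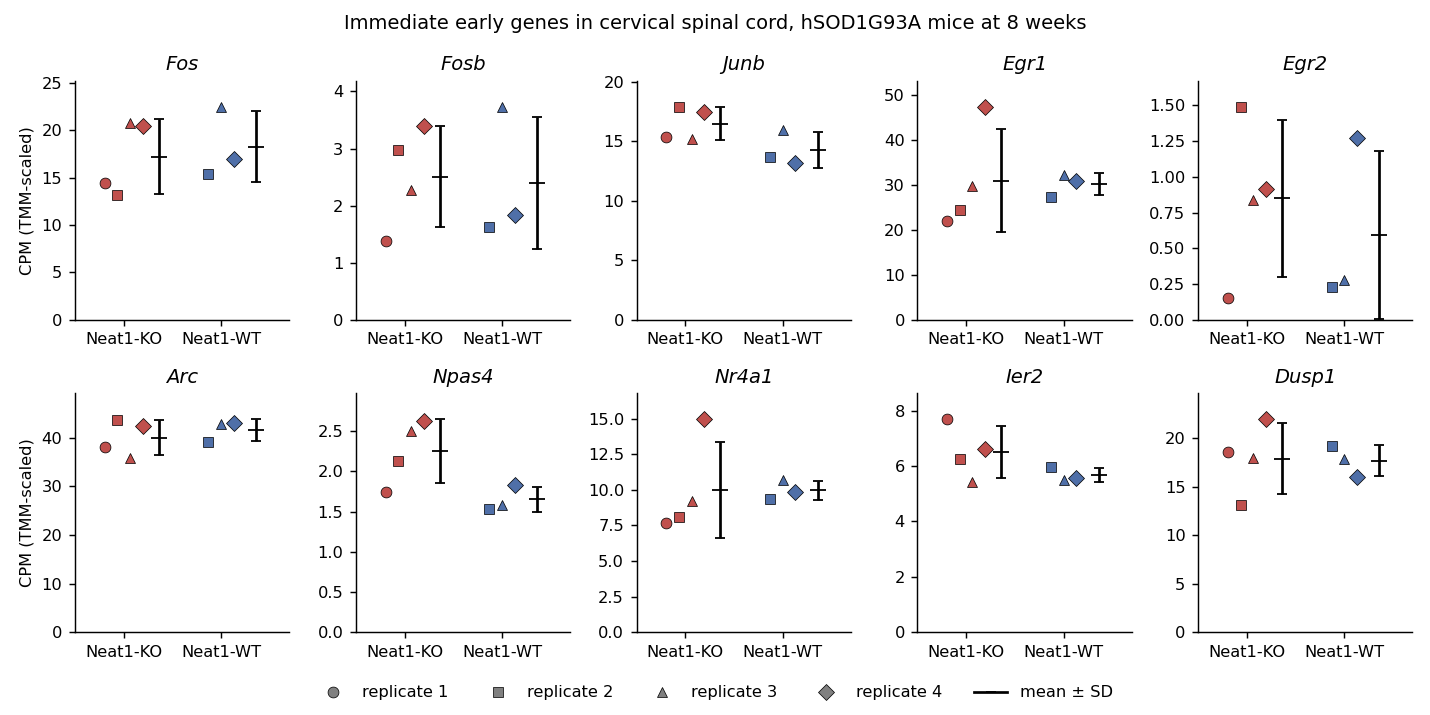
Each panel plots the TMM-scaled CPM (vertical axis from 0) of 1 gene in the 4 Neat1-KO (red) and 3 Neat1-WT (blue) libraries, with a marker shape for each replicate number and the mean ± SD beside the points. The genotypes overlap in every panel, Neat1-KO replicate 4 stands apart in Egr1 and Nr4a1 at 47.5 and 15.0 CPM, and Egr2 splits each genotype into low and high libraries.

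The *Fos* and *Jun* families make the subunits of the AP-1 transcription factor. *Fos*, on chromosome 12 from 85473890 to 85477273 (GRCm38), had 14.5, 13.2, 20.8 and 20.5 CPM in the *Neat1*-KO libraries and 15.3, 22.5 and 16.98 CPM in the *Neat1*-WT libraries, each in the order of the replicate numbers, as for all genes below. Each genotype held low and high libraries, and the highest was a *Neat1*-WT one. The mean of 17.2 ± 3.96 CPM (SD, n = 4) stood against 18.3 ± 3.75 CPM (SD, n = 3), and the log2 fold change was -0.08 (95% interval -0.47 to 0.30, adjusted p = 0.994, edgeR). *Fosb*, the gene of a *Fos* relative whose truncated form builds up with repeated stimulation, lies on chromosome 7 from 19302696 to 19310051. Its values were 1.39, 2.98, 2.27 and 3.39 CPM in *Neat1*-KO and 1.63, 3.73 and 1.84 CPM in *Neat1*-WT libraries, from 27 to 89 counts. As for *Fos*, the highest value was in *Neat1*-WT replicate 3, while the lowest was in *Neat1*-KO replicate 1. The log2 fold change was 0.08, with a wide 95% interval of -0.67 to 0.82 (adjusted p = 0.996, edgeR).

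*Junb*, which encodes an AP-1 partner of FOS that restrains JUN, lies on chromosome 8 from 84974484 to 84978718. Its levels were 15.4, 17.9, 15.2 and 17.4 CPM in *Neat1*-KO and 13.7, 16.0 and 13.2 CPM in *Neat1*-WT libraries. The ranges touched through *Neat1*-WT replicate 3 alone, which was above *Neat1*-KO replicates 1 and 3. With means of 16.5 ± 1.40 (SD, n = 4) against 14.3 ± 1.50 CPM (SD, n = 3), the log2 fold change of 0.21 (95% interval -0.04 to 0.45) had an unadjusted p of 0.0897 and an adjusted p of 0.992 (edgeR). Without *Neat1*-WT replicate 3 the log2 fold change was 0.30, with an unadjusted p of 0.0402 (edgeR). The gene overlaps 351 bp of *Prdx2*, a peroxiredoxin gene on the opposite strand with up to 4408 counts, and since it is not known whether the counting used the strand, reads from the shared stretch could not be assigned.

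The EGR genes encode zinc finger factors. *Egr1*, which in neurons follows strong synaptic input, had 22.1, 24.5, 29.8 and 47.5 CPM in *Neat1*-KO and 27.4, 32.4 and 31.0 CPM in *Neat1*-WT libraries. The *Neat1*-WT libraries were close together, while the *Neat1*-KO libraries lay on both sides of them, with replicate 4 above all and replicates 1 and 2 below all. So the means were near each other at 31.0 ± 11.5 (SD, n = 4) and 30.3 ± 2.54 CPM (SD, n = 3). On the log2 scale the fold change was 0.04 (95% interval -0.41 to 0.49, adjusted p = 0.997, edgeR). Without *Neat1*-KO replicate 4 it was -0.25.

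*Egr2*, on chromosome 10 from 67535475 to 67542188, encodes the factor that drives the myelin programme of Schwann cells, the myelinating cells of peripheral nerve. It had 0.154, 1.49, 0.835 and 0.915 CPM in *Neat1*-KO and 0.226, 0.280 and 1.27 CPM in *Neat1*-WT libraries, which came from 3, 37, 18 and 24 counts and from 5, 6 and 25 counts. The libraries formed a low set (*Neat1*-KO replicate 1, *Neat1*-WT replicates 2 and 3) and a high set, and both genotypes were in each. The log2 fold change was 0.57, with the widest 95% interval of the 10 genes, from -0.86 to 2.02 (adjusted p = 0.992, edgeR). It was 1.75 without *Neat1*-WT replicate 4 (unadjusted p of 0.0332, edgeR) and 0.16 without *Neat1*-KO replicate 2.

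*Arc* and *Npas4* are the members tied most closely to neurons. *Arc*, on chromosome 15 from 74669083 to 74672570, encodes a synaptic protein that removes AMPA receptors from the membrane. It had 38.0, 43.6, 35.9 and 42.5 CPM in *Neat1*-KO and 39.1, 42.8 and 43.1 CPM in *Neat1*-WT libraries. These values were the closest together of the 10 genes, with the highest 1.21 times the lowest. The log2 fold change was -0.06 with the narrowest 95% interval, -0.25 to 0.14 (adjusted p = 0.992, edgeR).

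*Npas4*, whose factor is induced by calcium entry and adjusts inhibitory synapses, lies on chromosome 19 from 4984355 to 4990316, 834392 bp from *Neat1*. It had 1.75, 2.14, 2.51 and 2.63 CPM in *Neat1*-KO and 1.54, 1.59 and 1.84 CPM in *Neat1*-WT libraries, from 34 to 69 counts. Only *Neat1*-KO replicate 1 lay within the *Neat1*-WT range, and the other 3 *Neat1*-KO libraries were above it. The *Neat1*-KO mean was 2.26 ± 0.399 CPM (SD, n = 4), and that of *Neat1*-WT 1.65 ± 0.159 CPM (SD, n = 3). The fitted log2 fold change, 0.45 (95% interval -0.06 to 0.97), had the lowest unadjusted p of the 10 genes, 0.0791, with an adjusted p of 0.992 (edgeR). Without *Neat1*-KO replicate 1 it was 0.55, with an unadjusted p of 0.0419 and an adjusted p of 0.715 (edgeR). Within genotypes, with the genotype means taken out, the coefficient of variation was 16.3%, where counting error gives 14.9%.

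The remaining genes encode a nuclear receptor, a nuclear protein and a phosphatase. *Nr4a1*, on chromosome 15 from 101254269 to 101274795, encodes an orphan nuclear receptor also known as NUR77. It had 7.71, 8.10, 9.19 and 15.0 CPM in *Neat1*-KO and 9.37, 10.7 and 9.84 CPM in *Neat1*-WT libraries. The pattern was that of *Egr1*, with *Neat1*-KO replicate 4 above all other libraries and replicates 1, 2 and 3 below all *Neat1*-WT ones. The log2 fold change was 0.01 (95% interval -0.44 to 0.46, adjusted p = 0.997, edgeR) and -0.26 without *Neat1*-KO replicate 4.

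*Ier2*, on chromosome 8 from 84661331 to 84662852, encodes a small nuclear protein induced by growth factors. It had 7.71, 6.25, 5.43 and 6.64 CPM in *Neat1*-KO and 5.97, 5.51 and 5.56 CPM in *Neat1*-WT libraries. Here *Neat1*-KO replicate 1, low for most of the genes, was the highest, and replicate 3 was the lowest. The log2 fold change was 0.19 (95% interval -0.15 to 0.54, adjusted p = 0.992, edgeR). *Dusp1*, on chromosome 17 from 26505590 to 26562128, encodes a phosphatase that switches MAP kinases off and also answers to glucocorticoids. It had 18.5, 13.1, 18.0 and 22.0 CPM in *Neat1*-KO and 19.2, 17.8 and 16.1 CPM in *Neat1*-WT libraries. The lowest and the highest value were both in *Neat1*-KO libraries, and the log2 fold change was 0.01 (95% interval -0.31 to 0.34, adjusted p = 0.997, edgeR). Its annotated span overlaps 640 bp of *Ergic1* on the opposite strand.

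**Figure D2:**
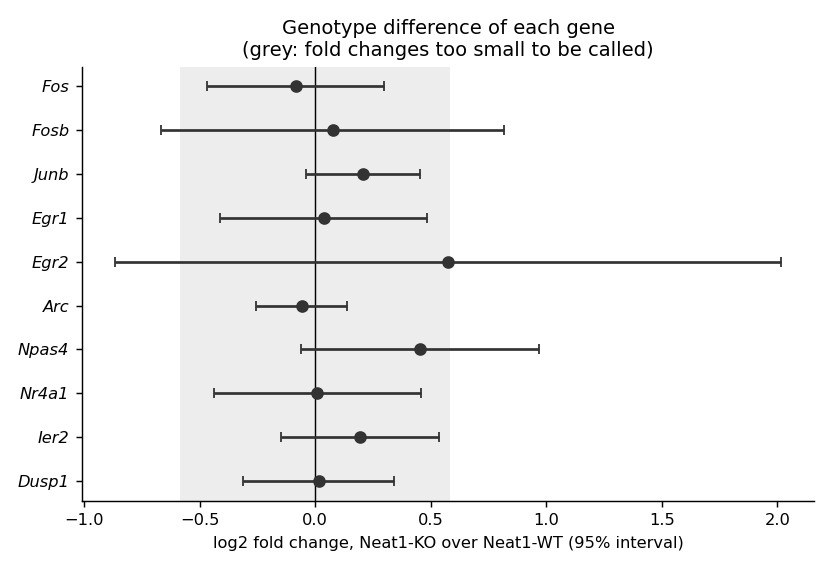
Points are the log2 fold changes of Neat1-KO over Neat1-WT mice (horizontal axis) of the 10 genes with their 95% intervals from the edgeR fit, and grey marks absolute values under 0.58. All intervals include 0, from the narrowest for Arc (-0.25 to 0.14) to the widest for Egr2 (-0.86 to 2.02).

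The precision differed between the genes, and so did the size of change these data could show. For *Fos*, *Junb*, *Egr1*, *Arc*, *Nr4a1*, *Ier2* and *Dusp1* the whole 95% interval lay within 0.58 on the log2 scale in either direction, a ratio of 1.495. For *Fosb*, *Egr2* and *Npas4*, the genes with the fewest counts, the interval went past it.

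Between mice of 1 genotype the genes ranged from steady to among the most variable. The standard deviation of log2 CPM within genotypes was 1.16 for *Egr2*, at the 99.4th percentile of all genes tested, and 0.58 for *Fosb*, at the 94.3rd. *Egr1* (84.6th), *Nr4a1* (80.9th), *Fos* (78.5th) and *Dusp1* (70.6th) were also above the middle. *Npas4* was at the 63.1st and *Ier2* at the 49.2nd percentile, and *Junb* (36.0th) and *Arc* (26.6th) were below it. The median of the 10 genes was the 74.6th percentile, and 2 of the 10 were above the 90th. This percentile does not account for level, since genes with few counts vary more. Within genotypes, with the genotype means taken out, *Egr1* had a coefficient of variation of 29.4%, where counting error gives 3.81%, and *Fos* had 21.9% against 5.05%, so counting error was the smaller part of their spread. In *Arc* the same values were 7.74% and 3.32%.

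**Figure D3:**
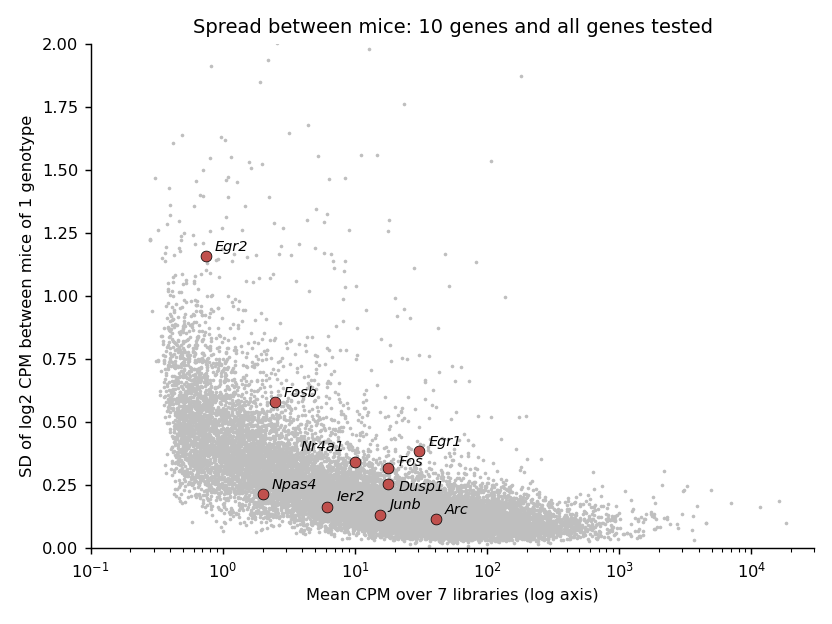
Each point is a gene, with its mean CPM over 7 libraries (horizontal, log axis) and the standard deviation of its log2 CPM between mice of 1 genotype (vertical), the 10 genes in red over all genes tested in grey, where 24 genes above the top of the axis at 2 are not drawn. Egr2 and Fosb have the largest standard deviations of the 10 genes, 1.16 and 0.58, followed by Egr1, Nr4a1 and Fos at 0.39, 0.34 and 0.32. Arc and Junb have the smallest, 0.11 and 0.13. Grey points at a similar level can lie higher, as does the Schwann cell gene Prx, at 1.76 with a mean of 23.4 CPM.

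*Egr1* and *Nr4a1* varied together from mouse to mouse. The ratio of their CPM stayed between 2.87 and 3.24 in the 7 libraries, although *Egr1* itself varied from 22.1 to 47.5 CPM. Pearson's r of their log2 CPM was 0.988 (two-sided exact permutation test over 7 libraries, p = 0.000397, 0.0179 after Benjamini-Hochberg adjustment over the 45 pairs of the 10 genes). Spearman's rho was 0.964 (exact permutation test, p = 0.00278, adjusted 0.125), so the rank measure did not pass the adjustment. It did not rest on *Neat1*-KO replicate 4 alone: r was 0.960 without that library and 0.932 without *Neat1*-KO replicates 1 and 4, the libraries farthest from the median of *Egr1*. After the genotype means were taken out, r was 0.988.

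No other pair passed. Over the 45 pairs r had a median of 0.30 and ran from -0.50 to 0.99, with 32 pairs positive, and without *Neat1*-KO replicate 4 the median was 0.06 and 25 pairs were positive. With *Fos* as the reference, r was 0.72 for *Egr1* (exact permutation test, p = 0.053, adjusted 0.329 over 9 relations, and rho 0.79, p = 0.048, adjusted 0.329). It was 0.68 for *Nr4a1* (exact permutation test, p = 0.0732, adjusted 0.329, and rho 0.68, p = 0.11, adjusted 0.329). Without *Neat1*-KO replicate 2 and *Neat1*-WT replicate 3, the libraries farthest from the median of *Fos*, these r were 0.76 and 0.66. For *Ier2*, r with *Fos* was -0.50 (exact permutation test, p = 0.248, adjusted 0.447, and rho -0.68, p = 0.11, adjusted 0.329), and -0.48 without those libraries. Of the 9 relations with *Fos*, 0 passed the adjustment.

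Part of the shared movement was the level of 1 library. With each gene centred and scaled over the 7 libraries, the mean of the 10 genes was 1.13 in *Neat1*-KO replicate 4, between -0.05 and 0.18 in *Neat1*-KO replicates 2 and 3 and *Neat1*-WT replicate 3, -0.18 in *Neat1*-WT replicate 4, and -0.51 and -0.54 in *Neat1*-KO replicate 1 and *Neat1*-WT replicate 2. *Neat1*-KO replicate 4 was the highest library for *Egr1*, *Npas4*, *Nr4a1* and *Dusp1*, 4 of the 10 genes, and the lowest for 0 of them. Among 40 other immediate early genes it was the highest for 18, or 45%, while it was the highest for 11.44% of all genes tested. It was also the most deeply sequenced library, and the part of depth in this was not tested. *Neat1*-KO replicate 1 was the lowest for 4 of the 10 genes and had the fewest counts. The share of all genes tested for which it was the lowest was not counted. It was the highest library for 3975 of the 18449 genes tested, more than any other library.

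**Figure D4:**
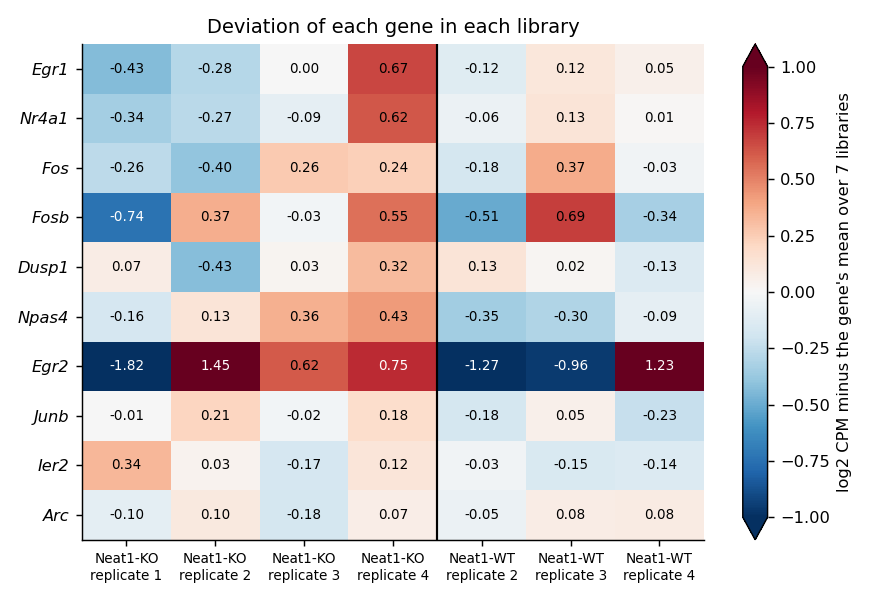
Each cell gives the log2 CPM of a gene (rows) in a library (columns) minus that gene's mean over the 7 libraries, red above and blue below, with the colour scale ending at 1 in either direction and a line between the genotypes. Neat1-KO replicate 4 is above the mean for all 10 genes, by 0.67 for Egr1 and 0.62 for Nr4a1, whose rows differ in order only where Neat1-KO replicate 3 and Neat1-WT replicate 2 change places, and the row of Egr2 holds the largest deviations.

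The libraries with the least *Egr2* also held the least of most genes of Schwann cells. This list of 7 genes (*Prx*, *Pmp22*, *Ncmap*, *Drp2*, *Cldn19*, *Dhh* and *Pou3f1*) was written after the values of *Egr2* had been seen. Its summed level was 181 CPM in *Neat1*-KO replicate 1, 179 CPM in *Neat1*-WT replicate 2 and 188 CPM in *Neat1*-WT replicate 3, where *Egr2* had at most 6 counts. In the other libraries it was 262 CPM (*Neat1*-KO replicate 3), 280.4 CPM (*Neat1*-KO replicate 4), 340.3 CPM (*Neat1*-KO replicate 2) and 355 CPM (*Neat1*-WT replicate 4). *Prx*, the gene of periaxin, a protein of myelinating Schwann cells, ran from 3.03 to 8.54 CPM in the low set and from 23.8 to 47.1 CPM in the high set. The 3 libraries with the least *Egr2* were the 3 lowest for 6 of these 7 genes. *Pou3f1* did not follow, with 10.8 CPM in *Neat1*-KO replicate 1 and 8.58 CPM in *Neat1*-KO replicate 3. The same libraries were the 3 lowest for 6 of 8 meningeal genes, among them *Col1a1*, a collagen gene of fibroblasts, with 8.65 to 13.5 CPM there and 28.8 to 52.3 CPM elsewhere. *Ptgds* and *Slc6a13* did not follow, and *Ptgds* was highest in *Neat1*-WT replicate 3, at 847 CPM. Those 3 libraries with the least *Egr2* also had the lowest mean log2(CPM + 0.5) of the astrocyte, microglia and upstream gene lists. For astrocytes it was 8.42 to 8.50 there against 8.53 to 8.66 elsewhere, and for microglia 4.73 to 4.99 against 5.04 to 5.23. This did not hold for the neuron, oligodendrocyte and endothelium lists. How many of all genes tested share this order was not counted. Because the libraries formed separate sets, no correlation is given. Of the Schwann cell list 6 of 7 genes had higher fitted levels in *Neat1*-KO mice, while 48.2% of all genes tested had lower ones. In that list 0 genes were called and 0 had an unadjusted p under 0.05 (edgeR). The part of nerve or meningeal tissue in the level of *Egr2* was not tested.

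**Figure D5:**
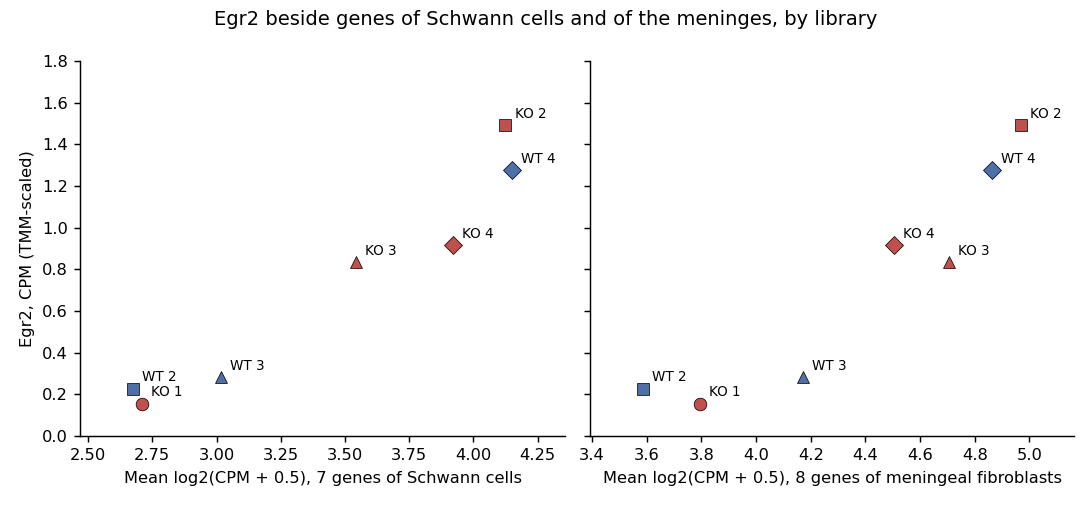
The TMM-scaled CPM of Egr2 (vertical) in each library is set against the mean log2(CPM + 0.5) of 7 genes of Schwann cells (left) and of 8 genes of meningeal fibroblasts (right), with Neat1-KO libraries in red and Neat1-WT libraries in blue. The 3 libraries with at most 0.280 CPM of Egr2 are the 3 lowest on both horizontal axes, and the 4 with at least 0.835 CPM are the 4 highest.

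Beyond the 10 genes, the 40 other immediate early genes gave 0 called, with a median log2 fold change of 0.11. Fitted levels in *Neat1*-KO mice were higher for 28 and lower for 12, while 48.2% of all genes tested were lower. Of the 40 genes, 3 had an unadjusted p under 0.05 (edgeR), where 4.64% of all genes tested did. The clearest was *Fosl1*, which encodes the AP-1 subunit FRA1. It had 1.901, 2.46, 1.76 and 1.87 CPM in *Neat1*-KO and 3.62, 2.89 and 3.77 CPM in *Neat1*-WT libraries, so the genotypes did not overlap. With means of 1.998 ± 0.313 (SD, n = 4) against 3.43 ± 0.469 CPM (SD, n = 3), the log2 fold change of -0.77 (standard error 0.21, unadjusted p of 0.00305) had an adjusted p of 0.733 (edgeR). *Fosl1* lies on chromosome 19 from 5447547 to 5455946, 368762 bp from *Neat1*. *Gadd45b*, a stress and activity gene with a part in DNA demethylation, had a log2 fold change of 0.32 (unadjusted p of 0.0236, adjusted p = 0.992, edgeR), with 13.9 ± 1.35 CPM (SD, n = 4) against 11.2 ± 1.26 CPM (SD, n = 3). *Homer1*, a scaffold of the postsynaptic density with an activity-induced short form, had -0.21 (unadjusted p of 0.0448, adjusted p = 0.992, edgeR), with 22.8 ± 2.09 CPM (SD, n = 4) against 26.3 ± 0.924 CPM (SD, n = 3). Of the 40 genes, 4 had no overlap between *Neat1*-KO and *Neat1*-WT libraries, namely *Fosl1*, *Dusp5*, *Gadd45g* and *Myc*, the last 2 named for this after their values were seen, while 5.47% of all genes tested had none. Gene counts do not part the short form of *Homer1* from the long ones. *Dusp5* and *Maff*, the largest positive changes of the list, had log2 fold changes of 0.37 and 0.33 (adjusted p = 0.992 for each, edgeR).

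Of 12 late activity genes, which the early factors switch on, 3 had higher and 9 lower fitted levels in *Neat1*-KO mice, while 48.2% of all genes tested were lower. The median log2 fold change of the late genes was -0.03, and 0 had an unadjusted p under 0.05 (edgeR). The extremes were *Scg2*, a secretogranin of neuropeptide vesicles (0.14), and *Rasgrp1*, an activator of RAS (0.06), against *Inhba*, a subunit of activin (-0.29), and *Rgs4*, a brake on G protein signals (-0.22). Of 24 upstream genes, kinases and factors that carry the signal to these promoters, 13 had higher and 11 lower fitted levels with a median of 0.01, and again 0 had an unadjusted p under 0.05 (edgeR). *Camk2a*, a calcium-dependent kinase of neurons, and *Mrtfa*, a partner of the serum response factor, were at 0.20 and 0.15, and *Creb1* and *Mef2c*, the genes of factors that bind activity-induced promoters, at -0.17 each. The adjusted p of all these genes was at least 0.992 (edgeR).

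Outside the lists, the 5 genes whose log2 CPM over the 7 libraries was most like the mean profile of the 10 were taken from 16535 other genes with a mean of at least 1 CPM, so their r are a description. *Adcyap1*, the gene of the neuropeptide PACAP, came first with r = 0.97, and 0.97 without *Neat1*-KO replicate 4. It had 25.2, 28.7, 28.0 and 32.9 CPM in *Neat1*-KO and 25.7, 29.5 and 26.6 CPM in *Neat1*-WT libraries, an order close to that of the mean profile. *Ncl*, the gene of nucleolin, had r = 0.96 and 0.89 without that library. For *Acer2* (a ceramidase, 0.95), *Trim35* (a ubiquitin ligase, 0.95) and *Anp32e* (a histone chaperone, 0.94), r without *Neat1*-KO replicate 4 was 0.76, 0.72 and 0.83. The adjusted p of these 5 genes between the genotypes was at least 0.992 (edgeR).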

How the data were processed

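Poly(A) RNA of 7 cervical spinal cords was sequenced from both ends as directional libraries. Per the submitters' processing notes and the methods, reads were checked with FastQC 0.11.7, trimmed with Trimmomatic 0.38, aligned to mm10 with HISAT2 2.1.0, handled with SAMtools 1.9 and counted per gene, uniquely mapped reads only, with featureCounts 1.6.3. The authors deposited raw counts per Ensembl gene, without normalization. The annotation release and the strand setting of the counting are not given in the sources used here. All per-sample columns were used.

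Groups came from the sample labels. Gene symbols and positions came from GENCODE M21 (GRCm38), which named 55227 of 55487 genes. In edgeR 4.0.16 (R 4.3.3), genes were filtered by filterByExpr, scaled by TMM and tested over all 7 libraries by the quasi-likelihood F-test with Benjamini-Hochberg adjustment over 18449 genes. Calls used the thresholds of the study, a log2 fold change beyond 0.58 in either direction at an adjusted p under 0.1. Intervals are 95% intervals of the unshrunken coefficient, and counting error was taken as Poisson. Correlations and standard deviations used log2 CPM with a prior count of 2, the plot of deviations none, and list means a pseudocount of 0.5, and correlations were tested over all orders of the 7 libraries. Named besides the 10 genes were those of the 3 activity lists with an unadjusted p under 0.05 or among the 2 largest changes in each direction, the 5 most similar genes, and *Neat1*. Other genes, of Schwann cells, meninges and stress hormones among them, were named after their values were seen. The 10 genes and all lists were chosen with earlier results of these data known, and the Schwann cell list after the values of *Egr2*. Some genes are not reported here.

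Other transcripts with at least 90% identity over at least 50% of a member were searched for with BLAST 2.17.0, which found 0 copies. Alternatives were DESeq2 1.42.0, limma 3.58.1 (limma-voom), other scalings and filters, a replicate block, a fit with *Xist* as covariate, leaving out each library, other thresholds and a prior count of 0.5. The tests were tried on simulated data first. Figures used matplotlib 3.10.9, pandas 2.3.3 and Python 3.11.15, and the correlations SciPy 1.17.1. The labels do not say more on how mice were chosen, so p-values measure the spread between these samples.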

Additional observations from a re-analysis of the deposited data

Results flagged for a closer look

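Among the 4 *Neat1*-KO libraries, 1 library stood far from the other 3 in 5 of 91 genes looked at (the 10 genes, the 3 activity lists and the 5 most similar genes), judged by its gap to the nearest other library as a share of the whole range. Chance flags about 1 in 20 such groups, here 4.55 of 91, so the number of flags is near that. This rate does not hold for the 5 most similar genes, which were picked for a profile that was highest in *Neat1*-KO replicate 4. *Neat1*-KO replicate 4 was the high library for *Sgk1*, a kinase gene induced by glucocorticoids and by activity, with 78.3 CPM against 23.5 to 30.6 CPM (share 0.871). It was also the high one for *Btg2*, an antiproliferative early gene, with 11.1 CPM against 6.01 to 6.63 CPM (share 0.877), for *Arl4d*, a small GTPase gene, with 13.9 CPM against 5.80 to 6.99 CPM (share 0.853), and for *Acer2*, with 13.8 CPM against 7.09 to 8.12 CPM (share 0.846). *Neat1*-KO replicate 1 was the low library for *Crebbp*, the gene of a coactivator of CREB, with 30.7 CPM against 41.0 to 42.7 CPM (share 0.860). None of the 10 immediate early genes was flagged.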

How the results depend on the processing

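Of the 10 immediate early genes, 0 were called under any alternative, and the smallest adjusted p of any of them was 0.6475, but DESeq2 gave no adjusted p for *Fosb*, *Egr2* and *Npas4*. The number of genes called in all was 6, and 124 with no filter, 27 with DESeq2, 39 with the replicate block and 3 to 31 with a library left out (3 without *Neat1*-WT replicate 3, 11 without *Neat1*-WT replicate 4 and 31 without *Neat1*-KO replicate 1). Same-numbered libraries did not deviate together over all genes (correlations of -0.20, -0.12 and -0.01). The labels do not say what the numbers mean, and these correlations cannot decide whether they pair the mice. In the replicate block 0 of the 10 genes were called. Members with an unadjusted p under 0.05 were 0 to 1 with a library left out, and members lower in *Neat1*-KO mice 1 to 6, with 5 under limma-voom. Fold changes near 0 changed sign: limma-voom gave -0.0114 for *Egr1*, -0.0249 for *Nr4a1* and -0.00875 for *Dusp1*, the replicate block gave -0.0272 for *Dusp1*, and with a library left out *Fos* ran from -0.197 to 0.0935, *Fosb* from -0.14 to 0.55, *Egr1* from -0.25 to 0.17, *Nr4a1* from -0.26 to 0.11 and *Dusp1* from -0.10 to 0.14. The Pearson r of *Egr2* with *Fos* was 0.0174 at a prior count of 0.5, and with a library left out it ran from -0.31 to 0.42, that of *Arc* from -0.28 to 0.35 and that of *Junb* from -0.16 to 0.56. In all, 132 of 150 fold changes and all but 9 of 72 correlations kept their sign, and the cause of the changes was not tested. *Xist* as a covariate holds counting noise only, at no more than 4 counts. With 4 mice against 3, *Npas4* is limited by few counts, and *Fosb* and *Egr2* also by their spread between mice.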

Other observations

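Some genes of stress hormones and of the clock were highest in *Neat1*-KO replicate 4. That library was the highest for 5 of 12 glucocorticoid-induced genes and 6 of 16 clock genes, beside 11.44% of all genes tested. The lists overlap with the early genes, since *Dusp1*, *Sgk1* and *Per1* belong to those too. Of the genes in neither early list, *Neat1*-KO replicate 4 was the highest for 2 of 9 glucocorticoid-induced and 5 of 15 clock genes. The 2 were *Ddit4*, with 69.6 CPM there and at most 57.2 CPM elsewhere, and *Errfi1*, with 57.9 CPM against at most 57.8 CPM. *Per1*, which belongs to both lists and to the other immediate early genes, had 22.5, 30.5, 27.5 and 44.1 CPM in *Neat1*-KO and 25.8, 27.0 and 24.1 CPM in *Neat1*-WT libraries. Of the classic glucocorticoid targets, *Fkbp5* did not share this, with 24.1 to 26.4 CPM in *Neat1*-KO and 23.6 to 29.8 CPM in *Neat1*-WT libraries, nor did *Tsc22d3*, which had 147 CPM in *Neat1*-KO replicate 4 and 164 CPM in *Neat1*-WT replicate 2. Of the glucocorticoid list 0 of 12 genes were called, 5 with higher and 7 with lower fitted levels in *Neat1*-KO mice and 1 at an unadjusted p under 0.05 (edgeR). Of the clock list 0 of 16 were called, 10 with higher and 6 with lower fitted levels and 3 at an unadjusted p under 0.05 (edgeR). Over all genes tested, 48.2% had lower fitted levels and 4.64% an unadjusted p under 0.05 (edgeR).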
